A study of Mus musculus with 6 samples.

Results

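The brain-expressed X-linked (Bex) genes encode small, largely unstructured proteins that act as adaptors in signalling from the p75 neurotrophin receptor, in the cell cycle and in apoptosis. They are best known from neurons and arose in placental mammals beside the related Tceal genes on the X chromosome. Bex6 is a member that lies on mouse chromosome 16. The family was measured here in RNA of 3 samples of E18.5 fetal and 3 samples of adult basal mammary cells from C57Bl6J mice labelled female, on 1 one-color Agilent array per sample, which reports the brightness of Cy3-labelled cRNA bound to oligonucleotide probes. The fetal cells came from embryos of day 18.5 and were sorted for CD31-CD45-Ter119-EpCAM++CD49f+, and the adult cells came from mice of 8–12 wk, sorted by the same exclusions plus BP-1- as EpCAM+CD49f+. No transgene, deletion or treatment is named for either population, and whether glands of several animals were pooled is not given in the labels. The gates differ in EpCAM and in BP-1 as well as in age, so stage and gate cannot be told apart.

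The members are Bex1, Bex2, Bex3 (formerly Ngfrap1), Bex4 and Bex6, matched to probes by transcript accession, because the symbols Bex1 and Bex4 have each been used for another member. This gave 7 of 55681 non-control probes: 2 for Bex1, 2 for Bex6 and 1 for each of the others. Of these, 6 passed the low-signal filter with 20447 probes in all, and 1 Bex6 probe was too dim. The members were chosen by the fetal minus basal difference in these same 6 arrays, so the fetal and basal values of its members are a description and no test of them is given. Probes whose signal stood well above background made up 83.3%, 78.9% and 76.8% of all probes on fetal arrays 1 to 3 and 82.0%, 78.0% and 76.4% on basal arrays 1 to 3, and no spot was saturated.

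The start sites of the X-linked members fell into 2 pairs by sequence, and the 150 bases before each are shown because Bex1 and Bex4, with nearly the same difference between the populations, form one pair and Bex2 and Bex3, with unlike differences, form the other. The sequences are RefSeq's on the GRCm38.p6 build, 5′ to 3′ on the strand of the gene. Capitals mark GGGCGG (a GC box), TGACG (the core of the cyclic AMP response element) and CACGTG (an E-box), each searched on both strands.
Bex1 (chrX:136215514-136215663, minus strand): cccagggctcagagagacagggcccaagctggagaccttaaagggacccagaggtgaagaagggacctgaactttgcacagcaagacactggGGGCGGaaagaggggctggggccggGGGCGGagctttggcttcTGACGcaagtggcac
Bex4 (chrX:136138846-136138995, plus strand): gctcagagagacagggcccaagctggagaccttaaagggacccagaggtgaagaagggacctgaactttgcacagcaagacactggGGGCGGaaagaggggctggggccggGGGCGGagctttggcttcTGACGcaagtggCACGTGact
Bex2 (chrX:136068237-136068386, minus strand): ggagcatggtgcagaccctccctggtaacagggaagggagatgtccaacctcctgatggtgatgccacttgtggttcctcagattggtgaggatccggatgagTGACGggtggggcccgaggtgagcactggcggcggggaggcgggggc
Bex3 (chrX:136270103-136270252, plus strand): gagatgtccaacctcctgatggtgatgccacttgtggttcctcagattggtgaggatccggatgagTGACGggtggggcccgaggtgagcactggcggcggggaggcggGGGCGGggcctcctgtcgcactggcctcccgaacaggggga

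Over the 250 bases before the start, Bex1 and Bex4 held an identical run of 221 bases, from position -221 to -1 in Bex1 and from -227 to -7 in Bex4, counted back from -1 at the base before the start. Their alignment paired 244 bases with 3 mismatches. Bex2 and Bex3 shared an identical run of 145 bases, from -145 to -1 in Bex2 and from -182 to -38 in Bex3. No run between the pairs, or with Bex6, exceeded 9 bases. Bex1 and Bex4 each held 2 GC boxes (32.7% of 32851 promoters of this length held at least 1), Bex3 held 1, and Bex2 and Bex6 held none. TGACG was found once in each X-linked member and not in Bex6 (17.8% of promoters). The E-box was found in Bex4 alone among the members (6.02% of promoters), at -9, and overlaps the end of the shared run. CCAAT was found once each in Bex2, Bex3 and Bex6 (33.8% of promoters), and TATAAA in Bex2 only (12.4%). A match of letters is a description and not evidence that a factor binds.

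Bex1, which binds the intracellular part of the p75 receptor and is linked to cell cycle exit, had, with Bex4, one of the 2 widest differences among the members. Its brighter probe, A_55_P2031021, had a normalized log2 signal of 14.57, 14.67 and 14.64 in fetal replicates 1 to 3 and of 6.45, 7.64 and 6.85 in basal replicates 1 to 3. The fetal arrays lay within 0.10 of each other and far above every basal array, whereas the basal arrays spanned 1.19. The fetal minus basal difference was 7.65 ± 0.28 (SE, n = 3 and 3), or 201-fold. The second probe, A_65_P16753, gave 12.22, 12.41 and 12.53 in fetal cells and 5.85, 6.11 and 5.94 in basal cells. Its difference was smaller, at 6.42 ± 0.13 (SE), or 85.6-fold, with no overlap of the arrays.

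Bex4, whose human counterpart binds tubulin, was close to Bex1 in its difference. Its probe A_55_P1967683 read 13.45, 13.71 and 13.67 in fetal cells and 5.81, 6.49 and 5.65 in basal cells. The groups did not overlap, and the difference was 7.63 ± 0.22 (SE), or 198-fold. Both genes were well above background on every basal array, with linear processed signals of 87.3, 155 and 106 for the brighter Bex1 probe and 55.8, 72.5 and 46.1 for Bex4, against 25617 to 30655 and 11823 to 15835 on the fetal arrays. Among the basal arrays both were highest in replicate 2, by 0.66 above the group mean for Bex1 and by 0.51 for Bex4. The 6 centred log2 values of the 2 genes differed by a root mean square of 0.19, the smallest of the 6 pairs of members without Bex6, and the other 5 lay between 1.51 and 3.06. Pairs with Bex6 are not given, because its basal values were at background. Whether the probes of Bex1 and Bex4 bind each other's transcripts was not tested.

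Bex2, which takes part in a complex with the transcriptional regulator Lmo2, stood lower. Its probe A_51_P237668 read 12.68, 12.66 and 12.89 in fetal cells and 8.40, 8.02 and 7.78 in basal cells. No basal array reached a fetal array, and the highest basal array was replicate 1, not replicate 2. The difference was 4.68 ± 0.17 (SE), or 25.6-fold.

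Bex3, a cell death executor that binds the p75 receptor, differed least. Its probe A_55_P2149615 read 11.76, 11.91 and 11.99 in fetal cells and 10.25, 10.40 and 10.33 in basal cells. The basal cells thus carried a clear Bex3 signal, and the groups still did not overlap. The difference was 1.56 ± 0.11 (SE), or 2.94-fold. Bex2 and Bex3 shared the run of promoter sequence shown above and differed by 4.68 and 1.56.

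Bex6, the member outside the X chromosome, was dim. Its brighter probe, A_55_P2028832, read 7.60, 7.63 and 7.80 in fetal cells and 2.42, 1.81 and 1.69 in basal cells. It was well above background on the 3 fetal arrays and on no basal array. Measured against a floor, the lowest signal of any probe well above background on each array, the fetal signal was at least 13.3-fold higher in the main normalization. This is a bound of 3.73 on the log2 scale, and it does not hold under every treatment of the signal. With 16 added before log2 the Bex6 difference was 3.46 and with a normexp correction 2.00, both under that bound. The fitted difference of 5.70 ± 0.20 (SE) rests on basal values at background. The other Bex6 probe, A_55_P2101880, stayed near background on all 6 arrays and gave no fold, so it does not show the fetal signal of the first.

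**Figure D1:**
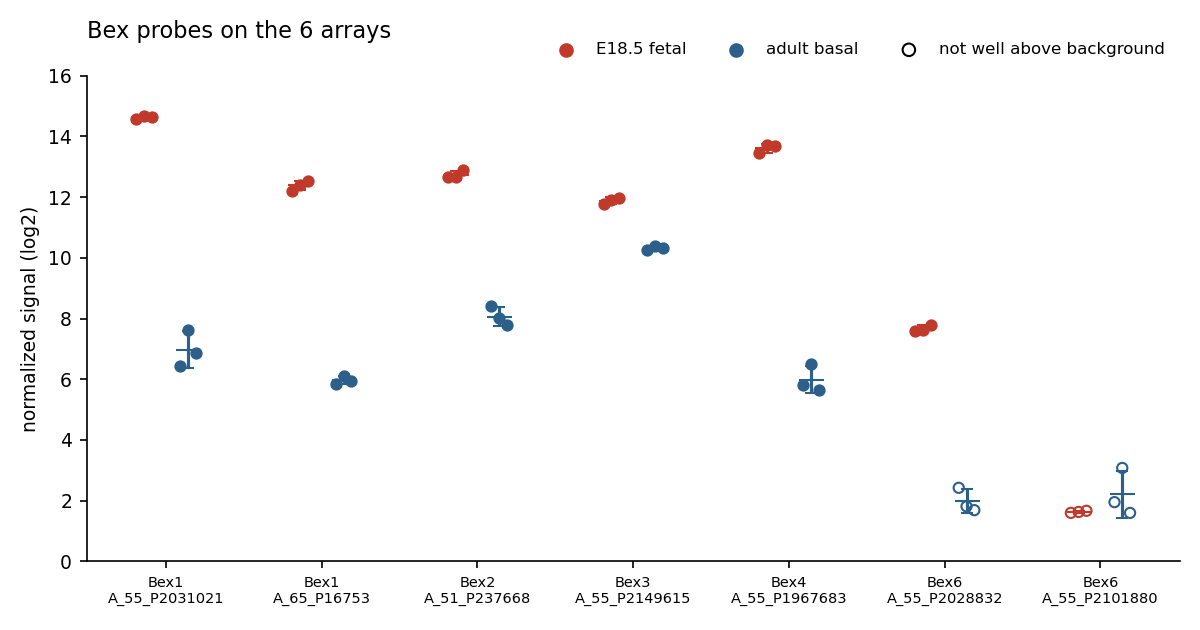
Normalized log2 signal of the 7 Bex probes on each array. Points are the 3 arrays of each population, short lines are means and bars are SD; open points were not well above background in any array of that population. For 6 probes every fetal array lies above every basal array, whereas the second Bex6 probe is at background throughout.

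By main probes, the order of the differences was Bex1 (7.65), Bex4 (7.63), Bex6 (5.70, on background values), Bex2 (4.68) and Bex3 (1.56). The differences of Bex1 and Bex4 lay within their SE of each other, and their order turned with the setting, with Bex4 ahead within slide 2, for example. The bound of Bex6, 3.73, lies below the difference of Bex2, so the order of these 2 is not settled. The 6 tested probes were all called higher in the fetal cells, where 5.92% of the tested probes were called in that direction (called means a 2-fold or larger difference whose Holm-adjusted p did not exceed 0.05). With any 1 array left out the count was 5, without Bex3. Since that contrast chose the members, nothing is read from these counts. Likewise, 34.1% of tested probes had all fetal arrays above all basal arrays. By size, the probes other than Bex6 were the 14th (Bex1), 16th (Bex4), 52nd (second Bex1), 238th (Bex2) and 1927th (Bex3) largest fetal excess of 20447. Bex6 is given no rank, because its basal values were at background. The ranking still holds other probes at background in basal cells. Among them are Lrrc17 (8.17), Dpysl4 (7.90) and Ska1 (7.83), with fitted differences above that of Bex1, so the ranks depend in part on such values. The median over the 5 main probes was 5.70, or 4.68 with Bex6 at its bound, and over all tested probes it was -0.03.

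With any 1 array left out, the Bex3 difference lay between 1.503 and 1.63. The differences of the Bex1 and Bex4 main probes with any 1 array left out ranged from 7.39 to 7.99 and from 7.46 to 7.90.

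**Figure D2:**
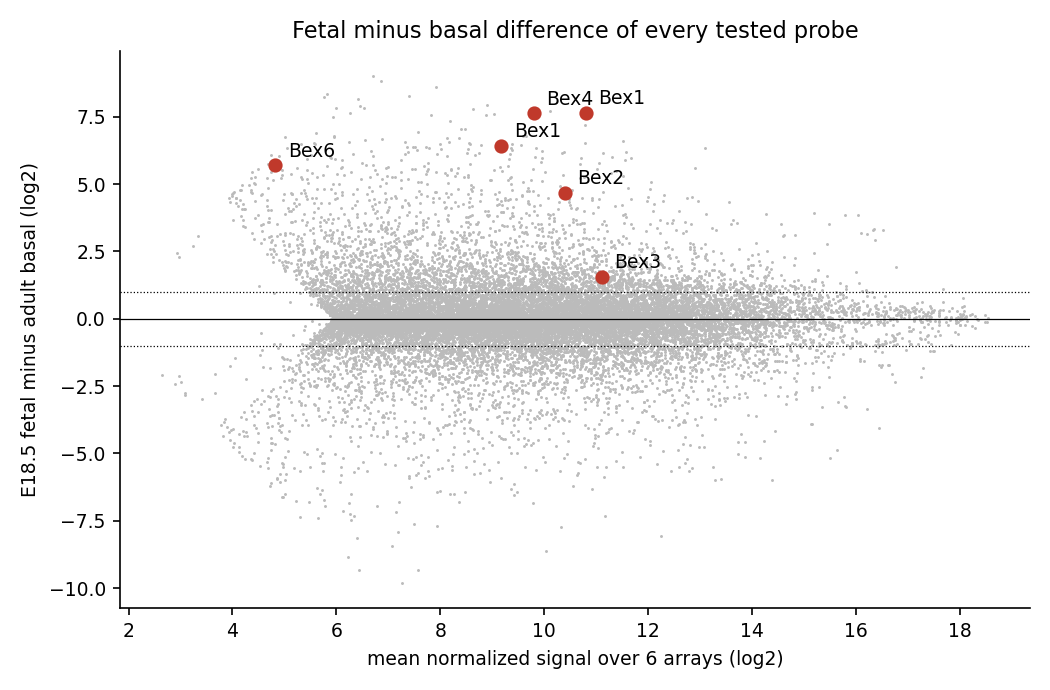
Fetal minus basal log2 difference (y) against mean log2 signal over the 6 arrays (x) for 20447 tested probes in grey; Bex probes are red, and dotted lines mark a 2-fold difference. The main Bex1 and Bex4 probes lie near the upper edge, and Bex3 just above the 2-fold line.

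The arrays were on 2 slides, 1 with fetal replicate 1 and basal replicates 1 and 3, and the other with fetal replicates 2 and 3 and basal replicate 2. Within each slide the fetal arrays were the higher: the differences within slides 1 and 2 were 7.92 and 7.02 for Bex1, 4.59 and 4.76 for Bex2, 1.47 and 1.55 for Bex3, 7.72 and 7.20 for Bex4 and 5.55 and 5.90 for Bex6. The sizes for Bex6 rest on basal values at background. How background was treated mattered most for the dim values. A normexp correction took Bex6 from 5.70 to 2.00, Bex4 from 7.63 to 6.47 and the second Bex1 probe from 6.42 to 5.41, whereas Bex3 went from 1.56 to 1.45. An offset of 16 before log2 gave 3.46 for Bex6 and 7.29 for Bex4.

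**Figure D3:**
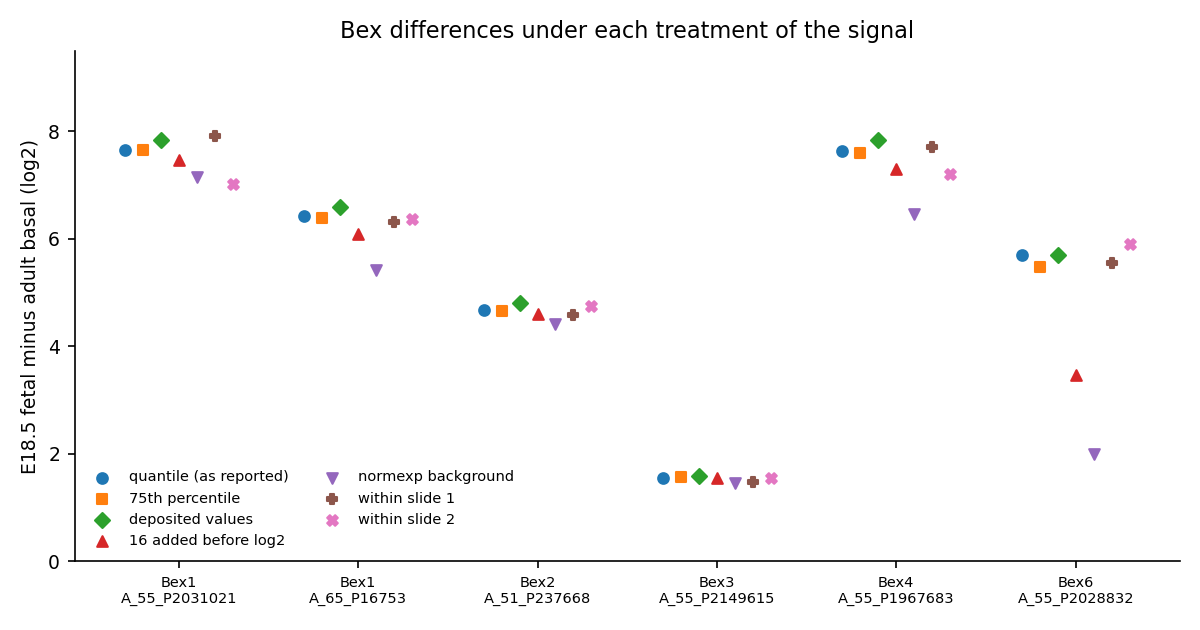
Fetal minus basal log2 difference of 6 Bex probes (y) under 5 treatments of the signal and within each slide, given by marker shape. Bex6 has the widest range, from 2.00 to 5.90, and Bex3 stays between 1.45 and 1.59.

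Outside the family, the genes whose 6 centred values lay closest to a member, by root mean square difference, were Tyms-ps (0.10), a pseudogene of thymidylate synthase, and the Wnt receptor Fzd9 (0.13) for Bex2, and Zbed4 (0.04) and Siva1 (0.05) for Bex3. For Bex4 they were Uhrf1 (0.25), which maintains DNA methylation, and Dpysl4, and for Bex1 Ska1, which works at the spindle, and Lrrc17. Dpysl4, Ska1 and Lrrc17 were not well above background in any basal sample, so their differences are bounds and no measure of likeness is given for them. The nearest to Bex6, the water channel Aqp5 and Scrg1, were found from its basal values at background, and no measure is given there either. These likenesses rest on 6 arrays and mostly on the difference between the groups.

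The genes around the X-linked members were counted in the order of the chromosome. The RefSeq order is Gprasp1, Gprasp2, Bhlhb9, Arxes2, Arxes1, Bex2, Nxf3, Bex4, Tceal8, Tceal5, Bex1, a locus with no matched probe, Tceal7, Tceal9, Bex3, Kir3dl2, Kir3dl1, Tceal3, Tceal1 and Morf4l2. Of the 13 tested neighbours, 2 were called higher in fetal cells, 1 was called higher in basal cells (of all tested probes 5.92% and 5.18% were called in these directions), and the median difference was 0.69. The neighbours called higher in fetal cells adjoin Bex2. Arxes2 read 10.40, 10.48 and 10.53 in fetal cells and 7.50, 7.57 and 8.00 in basal cells, a difference of 2.78 ± 0.15 (SE; limma, Holm-adjusted p = 0.0049). Its paralog Arxes1 read 8.87, 9.08 and 9.23 against 4.998, 3.73 and 4.25, a difference of 4.73 ± 0.30 (SE; limma, Holm-adjusted p = 0.0141), with 1 of the 3 basal arrays well above background. Both calls were lost when fetal replicate 1, 2 or 3 was left out (2.83, 2.77 and 2.73 for Arxes2, and 4.86, 4.71 and 4.61 for Arxes1), and that of Arxes1 also without basal replicate 3 (4.69). Between the Bex genes, Tceal8 (0.69), Tceal5 (1.32), Tceal7 (-0.16) and Tceal9 (0.58) were not called. Around Bex6 on chromosome 16, 0 of 10 tested neighbours were called, with a median difference of -0.03.

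**Figure D4:**
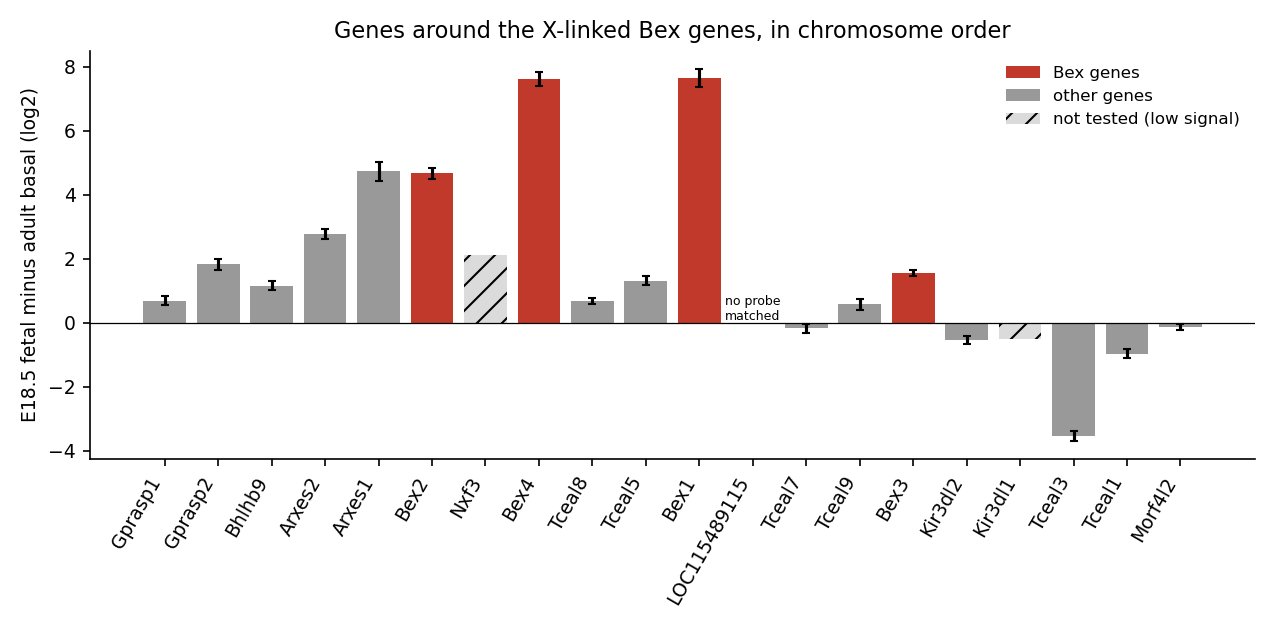
Fetal minus basal log2 difference of the genes around the X-linked Bex genes in RefSeq order, with SE bars for tested probes; Bex genes are red, and hatched bars had too little signal to test. The bars of Bex4 and Bex1 reach above 7, the other tested genes between Bex4 and Bex3 lie between -0.16 and 1.32, and Tceal3 lies at -3.54.

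The Tceal family, close relatives of the Bex genes named for their likeness to a transcription elongation factor, went the other way where a member was called. Of 7 tested members, 2 were called higher in basal cells, 0 were called higher in fetal cells, and the median was -0.16. Among those not called, Tceal5, Tceal8 (0.69) and Tceal9 read higher on every fetal array than on any basal array, and Tceal1 (-0.96) lower. Tceal3 read 8.28, 8.44 and 8.38 in fetal cells and 11.61, 12.01 and 12.07 in basal cells, 11.6-fold higher in the latter (limma, Holm-adjusted p = 0.000696). Tceal6 read 9.31, 9.18 and 9.23 against 12.18, 12.46 and 12.35, 8.51-fold higher in basal cells (limma, Holm-adjusted p = 0.000273). Tceal9, the brightest, differed by 0.58, and Tceal5 by 1.32 (Holm-adjusted p = 0.799, limma). Of the 9 tested genes of the Armcx and Gprasp families, which lie on the X chromosome as well, 0 were called, with a median of 0.70; Armcx2 differed by -0.29 and Armcx3 by 0.17. At 5.18% of all tested probes called higher in basal cells, these counts are given as a description.

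The neurotrophins bind the receptors in whose signalling the Bex proteins act. Of 3 tested, 2 were called higher in basal cells, a direction in which 5.18% of all tested probes were called. Bdnf read 9.65, 9.54 and 9.68 in fetal cells and 11.49, 11.63 and 11.48 in basal cells, 3.76-fold higher in basal cells (limma, Holm-adjusted p = 0.0042). Ntf3 read 6.87, 6.11 and 6.72 against 10.24, 11.04 and 10.69, 17.0-fold higher in basal cells (limma, Holm-adjusted p = 0.0149). Ntf5 (-1.87) was not called. The Bdnf call was lost when fetal replicate 1, 2 or 3 was left out (differences of -1.93, -1.86 and -1.93), and the Ntf3 call when fetal replicate 1, 2 or 3 or basal replicate 3 was left out (-4.26, -3.85, -4.14 and -4.08). With the slide as a block the Ntf3 call was lost as well, at -4.11.

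Of 8 tested receptors, by their main probes, 1 was called higher in fetal cells and 1 in basal cells, where 5.92% and 5.18% of all tested probes were called. Sort1, the co-receptor for proneurotrophins, read 10.57, 10.54 and 10.49 in fetal cells and 5.86, 5.76 and 6.05 in basal cells, 25.0-fold higher in fetal cells (limma, Holm-adjusted p = 1.54e-05). A second Sort1 probe differed by 1.01 and was not called, so the probes of this gene disagree in size. Ntrk3, the receptor for Ntf3, read 8.10, 7.93 and 8.08 against 11.15, 11.33 and 11.77, 10.4-fold higher in basal cells (limma, Holm-adjusted p = 0.0029). Its 3 other probes were also called higher in basal cells and differed in size: 1 was 9.23-fold higher, and the other 2, not well above background in fetal cells, were at least 151-fold and at least 15.2-fold higher. Without fetal replicate 1 or 2 the call of the first probe was lost, at -3.43 and -3.32, while the other 3 kept theirs with any 1 array left out. Ngfr, the p75 receptor itself, named here although outside the rule for naming genes, differed by -0.68 and was not called, nor were Ntrk2 (0.36) and Nradd (-0.65). A second probe of Sorcs1, a relative of Sort1, was called at -1.96 where the main probe gave -0.39, and it lost its call without any 1 fetal array or basal replicate 3 (between -2.00 and -1.90).

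Among 10 tested adaptors of the p75 receptor 1 was called, higher in fetal cells (5.92% of all tested probes). Traf4 read 13.28, 13.21 and 13.31 in fetal cells and 11.37, 11.43 and 11.28 in basal cells, 3.76-fold higher in fetal cells (limma, Holm-adjusted p = 0.0032). Its call was lost without fetal replicate 1, 2 or 3, at 1.91, 1.94 and 1.89. Arhgdia differed by -0.38 and Maged1 by -0.13. Of 8 tested genes reported to bind Bex proteins, 0 were called by their main probes; Calm2 differed by 0.34 and Ywhae by 1.06. Calm3, named after its value was seen, differed by 2.12 with a Holm-adjusted p of 0.0796 (limma), and by 1.93, with a call, without basal replicate 2. Its second probe was called at 1.42 (Holm-adjusted p = 0.0461, limma), and lost its call when any 1 array was left out (1.37 to 1.496).

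**Figure D5:**
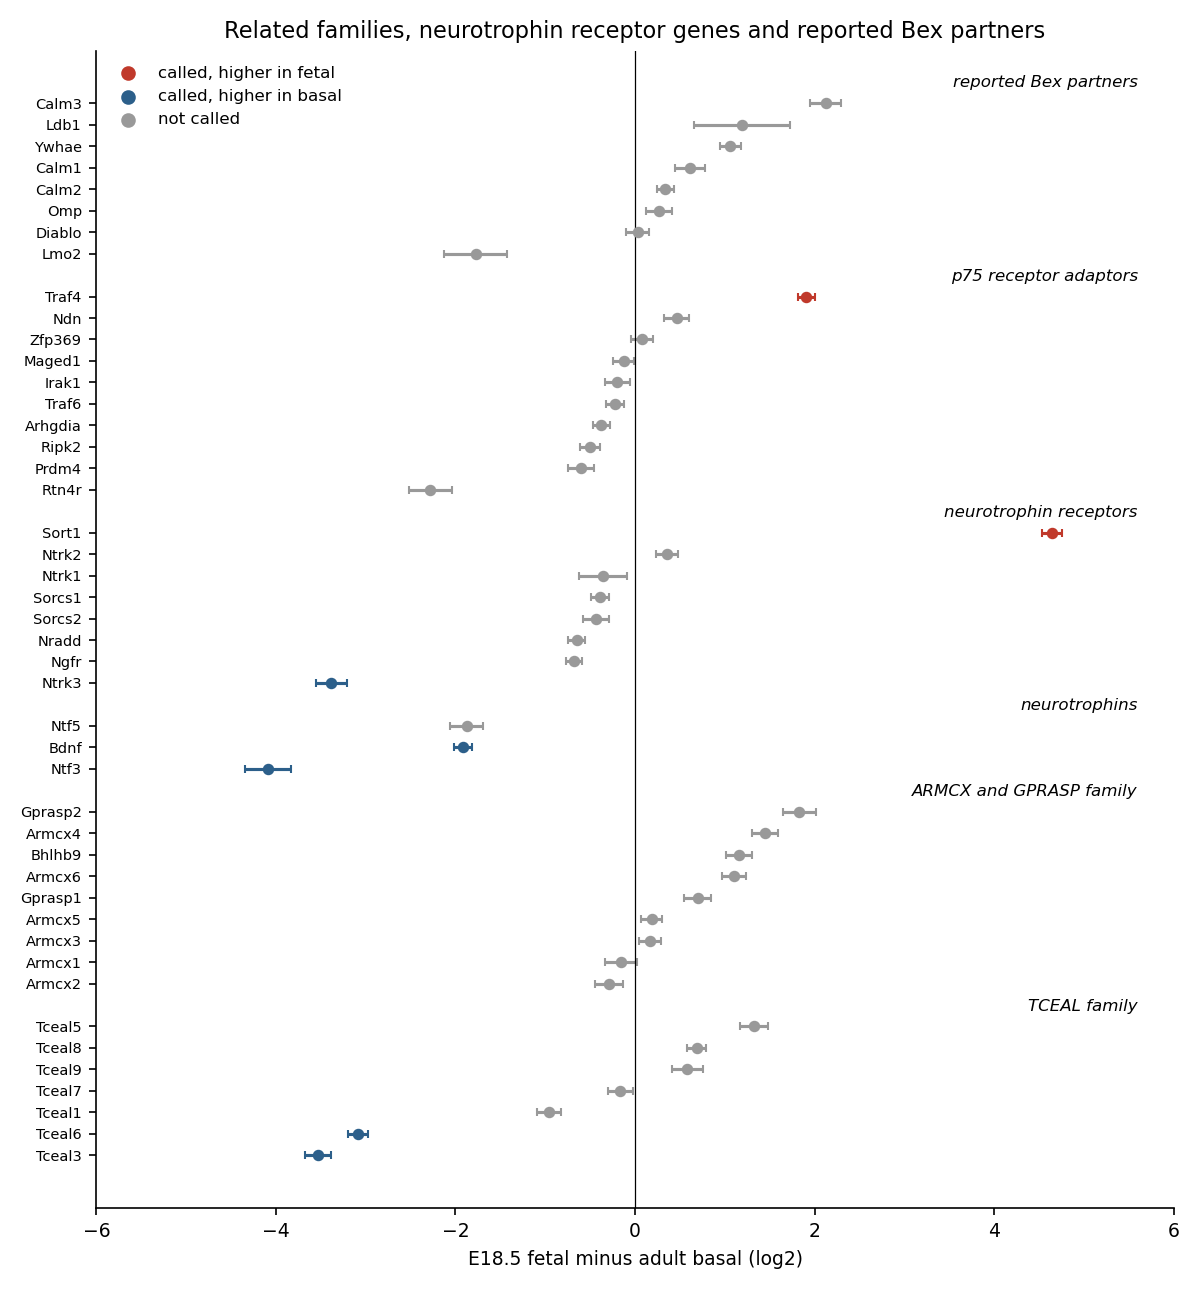
Fetal minus basal log2 difference (x) with SE of the tested genes of 6 lists (1 probe per gene). Called genes are red where higher in fetal and blue where higher in basal cells; Sort1 and Traf4 are the red points, and Tceal3, Tceal6, Bdnf, Ntf3 and Ntrk3 the blue ones.

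Markers of the cells that the samples could hold are given beside the Bex values, and their counts of called genes stand against 5.92% of all tested probes called higher in fetal and 5.18% higher in basal cells. Of 8 tested basal markers 6 were called higher in basal cells, among them Myh11 (-8.63), Cnn1 (-6.01) and Mylk (-4.50). Krt14 (-1.20) and Trp63 (-0.08) were not called by their main probes. Krt14 read 13.78, 13.37 and 13.36 in fetal cells and 15.25, 13.39 and 15.46 in basal cells, so only basal replicate 2 overlapped the fetal arrays. A second Trp63 probe was called at -3.065, so the probes of this gene disagree. Of 7 tested luminal markers 2 were called higher in fetal cells. Elf5 read 12.60, 12.82 and 12.53 in fetal cells and 4.88, 5.001 and 5.41 in basal cells, and Kit 10.87, 10.89 and 10.82 against 6.92, 6.52 and 7.13. The brightest of the others, Krt18 (0.58) and Krt8 (0.44), were not called and read higher on every fetal array than on any basal array. Krt19 (-1.22), Prlr (-0.35) and Esr1 (-1.06, main probe too dim to test) read lower on every fetal array and were not called. A second Prlr probe was called at 1.85, a call lost when any 1 array was left out (1.75 to 1.91). A tested Esr1 probe, well above background on only 1 of 3 fetal arrays, differed by -3.58 (Holm-adjusted p = 0.251, limma) and was not called. The summed luminal signal was 17.51, 17.54 and 17.19 in fetal and 16.95, 16.89 and 16.88 in basal cells on the log2 scale, with Krt18 the brightest. The summed basal signal was 16.001, 15.82 and 15.67 against 19.65, 19.54 and 19.52, with Acta2 the brightest. Elf5 and Kit moved in the same direction as the Bex genes, and their part in the result was not tested. In bulk samples, fewer cells of a type and less RNA per cell cannot be told apart.

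Because Bex genes are known from neurons, neuronal and related markers were listed as well. With 1 to 6 tested genes in each of these lists, 0 or 1 calls say little beside the 5.92% and 5.18% of all tested probes called in the 2 directions. Of 5 tested neuronal markers 0 were called, with a median of 0.03 and a summed signal of 13.90, 13.78 and 13.37 in fetal and 13.39, 13.64 and 13.50 in basal cells. Snap25, the brightest, differed by 0.37. Stmn2 stayed near background on all 6 arrays, and Gap43 was well above background on 2 of 3 fetal arrays and on no basal array. Of 4 tested Schwann cell markers 0 were called, and Foxd3 and Cdh19 stayed near background on all 6, although Sox10 was bright in both populations (13.46, 13.55 and 13.83 against 13.76, 13.18 and 13.39). Their summed signal was 13.54, 13.62 and 13.89 in fetal and 13.83, 13.29 and 13.49 in basal cells. Of 3 tested neuroendocrine markers 0 were called, with Syp (-0.08) the brightest. No endothelial, leukocyte or erythroid marker was called among 4, 5 and 1 tested, with medians of -0.97, -0.06 and 0.14. The endothelial genes Cdh5 (-2.70) and Emcn (-1.79) were lower on every fetal array than on any basal array, as were Tie1 and Tek, which were too dim to test and at background in fetal cells. The brightest, Kdr, differed by -0.04 by its main probe. A second, dimmer Kdr probe had means of 6.20 in fetal and 6.87 in basal cells (-0.66), with overlapping arrays. In basal cells the fibroblast marker Dcn was 13.7-fold higher (limma, Holm-adjusted p = 0.0023), with 1 of 6 tested called and the call lost without fetal replicate 1 (-3.74), and Acta1, of the skeletal muscle list, was 25.6-fold higher (limma, Holm-adjusted p = 3.43e-05), with 1 of 3 called. The summed fibroblast signal was 12.41, 12.48 and 12.78 in fetal and 13.92, 14.13 and 14.66 in basal cells. That of the muscle list was 10.20, 10.24 and 9.97 against 14.36, 14.51 and 14.35. In basal cells Acta1 alone read 14.33, 14.49 and 14.33, close to the muscle sum. Myod1 (-0.07) and Myog (-0.17) were not called. Their arrays overlapped between the populations, as did those of Ckm (-0.48), too dim to test. Des, too dim to test and at background in fetal cells, read lower on every fetal array. The part of the fibroblast and muscle genes in the Bex values was not tested.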

How the data were processed

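Labels gave group and replicate number of each of the 6 arrays. Per the labels and methods, the authors scanned the arrays and quantified spots with Feature Extraction (version 11.0.1.1), which gave the deposited spot intensity, background-subtracted and linear. The authors also deposited log2 values, quantile normalized in GeneSpring, which served as an alternative. The labels and methods differ in the labelling kit. From the processed intensity, log2 values without control and outlier spots (104 to 326 per array) were averaged per probe and quantile normalized here, since the study's methods do so. Accessions were matched to a RefSeq table of GRCm38.p6: 27234 probes of 20660 genes. Probes below a k-means boundary of 5.95 in both populations were removed (3 clusters, 100 starts, seed 1). Differences were fitted with limma 3.58.1 (R 4.3.3) on all 20447 remaining probes, with Holm adjustment, and 2270 were called. Where a gene had several probes, the brightest on average was the main one. A bound was set against a floor on each array, the lowest normalized signal of any probe well above background there, or the probe's own signal where higher. These were averaged over the 3 arrays of the population. A single array counted as well above background can lie below that average, as Cdh5 did at 3.62 on fetal array 1. The bounds hold for the main normalization.

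The members and the lists were chosen with earlier results of these data known. One list symbol was changed to Bhlhb9, the name used in the RefSeq table, after the data were seen, and 1 listed gene is not reported here. From each list, up to 3 called genes in each direction with the largest difference and up to 2 others with the highest signal were named. Krt19, Prlr, Esr1, Gap43, Stmn2, Foxd3, Cdh19, Cdh5, Emcn, Tie1, Tek, Ngfr, Calm3, Sorcs1, Tceal1, Tceal8, Gprasp1, Gprasp2, Armcx4, Armcx6, Bhlhb9, Ckm and Des fall outside this rule and were named after their values were seen. The same holds for genes named only for a call under an alternative. All neighbours (protein-coding, within 5 genes) were counted. Among genes most like a member, symbols starting with Gm, LOC or ending in Rik were left out. The fit was checked on simulated data. Tables were made in Python 3.11.15, and P-values measure the spread between 3 arrays a group, which limits precision. Alternatives covered normalization, background correction, offset (16), filters, adjustment, variance model, blocks, leaving out each array and averaging probes.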

Additional observations from a re-analysis of the deposited data

How the results depend on the processing

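No tested Bex difference, and no called difference among the genes of the 6 related lists, Arxes1, Arxes2 and the named markers other than Acta2, changed direction under an alternative. Acta2 was not followed through the alternatives. The 2270 calls over all probes became 1182 without the low-signal filter, 6133 with Benjamini-Hochberg adjustment and 1302 with the replicate number as a block, and between 949 and 1949 with 1 array left out. The 7 calls in the Tceal, Armcx and Gprasp, neurotrophin, receptor, adaptor and partner lists became 17 with Benjamini-Hochberg adjustment, 11 with trend and robust eBayes and 4 with the replicate block, and between 3 and 8 with 1 array left out. The Bex probe count stayed at 6 or 5 (5 of 5 genes when probes of a gene were averaged). At 5, the probe lost was Bex3, except under normexp, where Bex6 was too dim to enter the fit. The median over the Bex main probes, 5.70, became 4.42 with normexp, 4.59 with an offset of 16 and 4.68 with the mean of a gene's probes. With 1 array left out it lay between 5.56 and 5.84, limits that are those of Bex6 itself, against basal values at background. They therefore do not show how stable the median is, and with Bex6 at its bound it was 4.68. The Bex6 values with normexp, 2.00, with the offset, 3.46, and with the mean of its probes, 2.56, lie under its bound of 3.73 on the log2 scale. The mean of its probes put Bex1 at 7.03, below Bex4. The replicate numbers did not pair the samples: the correlations of same-numbered deviations were -0.032, 0.093 and 0.049. Leaving out single arrays aside, without a filter Ntf3, Arxes1 and the second probes of Calm3, Krt5 and Prlr lost their calls, with the slide as a block Ntf3 and the second probes of Calm3 and Prlr did, and with the replicate block Bdnf, Ntf3, Traf4, Arxes1 and the second probes of Sorcs1, Calm3 and Prlr did. The second Calm3 probe also lost its call with the filter on probes well above background, and it and the second Prlr probe with probes not matched to a gene included. With the mean of a gene's probes Trp63 was called higher in basal cells, at -1.57. Gprasp2 was called without basal replicate 3 and Calm3 without basal replicate 2, Gprasp2, Ntf5 and Calm3 with normexp and with trend and robust eBayes, Ywhae with the latter, and Calm3 with the offset and the mean of its probes. With Benjamini-Hochberg adjustment these 4 and Tceal5, Armcx4, Armcx6, Bhlhb9, Rtn4r and Lmo2 were called, as was the second Sort1 probe (1.01). Outside these lists Krt19 (-1.22), Cdh5 (-2.70), Emcn (-1.79), Syt1 (-1.31), Lum (-1.05) and Cep19 (1.51), a neighbour of Bex6, were called too. So were Gap43 and the tested Esr1 probe (-3.58), whose dimmer populations were wholly or mostly at background. The counts of 0 called by main probes in the Armcx and Gprasp, partner, neuronal and endothelial lists and around Bex6 thus hold for Holm adjustment. So does the count of 0 Tceal genes called higher in fetal cells.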
